A study of Mus musculus with 14 samples.

Results

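Among mouse bone marrow stem cells sorted one per well, 123 of 344 cells in plates 352W and 353W carried 5 or more counts of 19 genes of late cell division. They are called high-sum cells here. They were chosen by these counts alone. The 19 genes were Mki67, Top2a, Ccnb1, Ccnb2, Cdk1, Birc5, Cdc20, Aurka, Aurkb, Plk1, Ube2c, Tpx2, Cenpf, Cenpe, Nusap1, Hmgb2, Bub1, Hmmr and Kif11, and their counts were summed in every cell with 500 or more counts in all. Cells of the same plates with a sum of 0 or 1 served as the comparison cells, of which there were 124, and 97 cells with a sum of 2 to 4 fell between. The whole experiment held 716 cells of 500 or more counts in 4 plates.

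The series concerns hematopoietic stem cells of mice that lack Phf19, a partner of the Polycomb repressive complex PRC2, and of control mice with a floxed allele. The 4 plates came from bone marrow depleted of lineage-positive cells, and their labels give the stem cell gate CD150+CD48-. Transcripts were counted by MARS-Seq, a plate method that primes on poly(A) tails and counts unique molecules, so a count here is a molecule and not a read. Each plate held 96 wells with the prefix WT and 96 with the prefix KO, always in wells 1 to 96 and 97 to 192. The plate labels give no genotype, the prefix WT is not defined, and the sources used here do not give the number of mice, their age or the Cre driver. Genotype and well range therefore cannot be told apart. The units compared below, each a prefix in a plate, may share animals, so p-values measure the spread between units and none between animals. In the test of high-sum against comparison cells that spread has 3 residual degrees of freedom. It is estimated with information shared across genes, not from each gene alone.

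Cells in G2 and mitosis are known for a shared transcript programme. Cdk1 with the cyclins Ccnb1 and Ccnb2 drives entry into mitosis, Aurka, Aurkb and Plk1 are mitotic kinases, Top2a untangles sister DNA, Birc5 belongs to the chromosomal passenger complex, and Ube2c and Cdc20 act in the ubiquitin ligase that ends mitosis. Many of these genes share the promoter element TTTGAA, called the cell cycle homology region, and CCAAT boxes, which bind NF-Y. Adult stem cells with the CD150+CD48- phenotype are known to be mostly quiescent.

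Promoters of 3 of the 19 genes are shown first, because such elements are known in genes of this kind, and then promoters of the histone genes Hist1h2aa and Hist3h2a, which turn up below among the genes that differed. Each sequence holds the 150 bases before the RefSeq start (GRCm38.p6), 5′ to 3′ on the strand of the gene, with the matches to TTTGAA (the cell cycle homology region), CCAAT (the NF-Y box) and TATAAA (the TATA box) on either strand in capitals; no matches overlapped in the windows shown. The windows are chr10:69352913-69353062, reverse strand, for Cdk1, chr9:70421555-70421704, reverse strand, for Ccnb2, chr7:122159285-122159434, forward strand, for Plk1, chr13:23934287-23934436, forward strand, for Hist1h2aa, and chr11:58954535-58954684, forward strand, for Hist3h2a.
Cdk1: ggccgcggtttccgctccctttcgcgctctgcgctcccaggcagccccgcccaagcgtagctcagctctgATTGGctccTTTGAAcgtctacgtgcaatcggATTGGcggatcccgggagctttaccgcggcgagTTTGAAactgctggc
Ccnb2: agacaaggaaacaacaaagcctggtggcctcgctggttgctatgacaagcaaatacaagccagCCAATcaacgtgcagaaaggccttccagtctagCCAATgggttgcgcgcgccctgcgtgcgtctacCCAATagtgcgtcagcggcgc
Plk1: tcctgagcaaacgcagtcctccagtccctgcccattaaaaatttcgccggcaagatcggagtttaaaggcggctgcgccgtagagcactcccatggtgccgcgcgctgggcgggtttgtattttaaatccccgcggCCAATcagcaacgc
Hist1h2aa: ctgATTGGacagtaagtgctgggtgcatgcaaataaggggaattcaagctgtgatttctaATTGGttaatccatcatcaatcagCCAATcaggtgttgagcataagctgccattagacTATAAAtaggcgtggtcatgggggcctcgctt
Hist3h2a: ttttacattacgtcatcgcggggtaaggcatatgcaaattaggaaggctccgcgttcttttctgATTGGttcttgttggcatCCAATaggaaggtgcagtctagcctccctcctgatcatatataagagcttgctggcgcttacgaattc
Cdk1 held 2 TTTGAA and 2 CCAAT matches, Ccnb2 held 3 CCAAT matches and Plk1 held 1. Hist1h2aa held 3 CCAAT matches and a TATAAA, and Hist3h2a held 2 CCAAT matches. Of other genes called higher below, with windows not printed, H2afj held 3 CCAAT matches and Tuba1b held none of the elements. Of 32851 promoter windows of this length, 9.07% held TTTGAA, 24.5% held CCAAT, 6.02% held 2 or more CCAAT and 7.57% held TATAAA. A match describes these letters only.

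Before the results, the plates differed in ways that touch the choice of cells. The 4 plates held between 533593 and 893098 counts in kept cells, with medians of 2688 to 4679 counts per cell, plate 353W being the deepest. Phf19 itself was found at 0 to 5 counts per prefix and plate (1, 0, 0 and 5 in the WT cells of plates 350W to 353W and 0, 2, 1 and 0 in the KO cells), so its level cannot check the prefixes. Wells of fewer than 500 counts were left out, and in plate 352W these were 1 WT and 22 KO wells, in 353W 1 and 16. No cell name occurred in more than 1 plate. Cells were sorted one per well, and no doublet caller was run.

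Plate 353W stood apart in 2 of the 19 genes. Top2a had a count in 79.4% of its kept cells and Cdk1 in 56.6%, against 18.9% and 11.2% in plate 352W, 7.57% and 3.24% in 351W, and 5.88% and 2.14% in 350W. Both genes were also found in cells of plate 353W with a sum of 2 to 4, of which 81.5% had Top2a and 47.7% had Cdk1. In its 17 left-out wells Top2a was counted in 1 well and Cdk1 in 2. These wells held 4541 counts in all. That is 2.20 and 4.40 per 10000 counts, from 1 and 2 counts, against 4.32 and 2.24 in kept cells. Plate 351W was alike in other genes, with Ccnb2 in 24.3% and Mki67 in 23.2% of cells, against 1.60% to 12.0% for Ccnb2 and 1.07% to 13.7% for Mki67 in the other plates. The part of depth, of RNA from other wells or of the plate in these values was not tested.

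**Figure D1:**
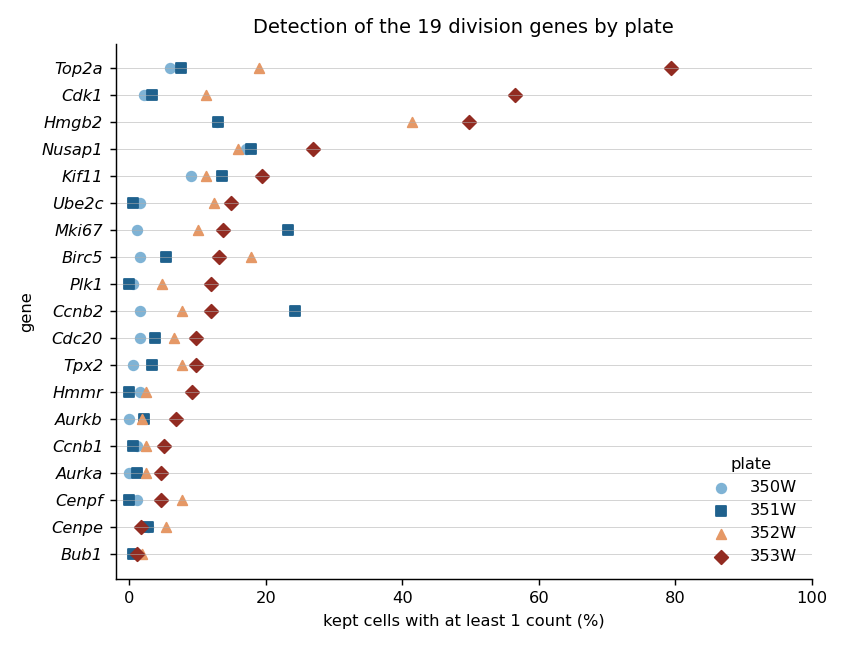
Percent of kept cells with at least 1 count (x axis) for each of the 19 genes that define the high-sum cells (y axis), with 1 symbol per plate. Top2a and Cdk1 in plate 353W stand at 79.4% and 56.6%, far to the right of the other plates, and Ccnb2 and Mki67 are highest in plate 351W.

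These 2 genes decided who was a high-sum cell in plate 353W. Of its 86 high-sum cells, 38 (44.2%) still had a sum of 5 or more without Top2a and Cdk1, and 12 dropped to 0 or 1. In plate 352W 32 of 37 (86.5%) kept 5 or more. Top2a and Cdk1 together gave 37.2% of the counts that defined the high-sum cells of 353W and 21.3% of those of 352W. Results are therefore also given for the sum without these genes and for plate 352W alone, both chosen after the values were seen.

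The high-sum cells numbered 19 of 95 WT cells and 18 of 74 KO cells in plate 352W, and 49 of 95 WT and 37 of 80 KO cells in plate 353W. Their sums had medians of 14, 9, 8 and 8 in that order and reached 25, 36, 56 and 41. The median high-sum cell had counts for 5 of the 19 genes in plate 352W and for 4 in plate 353W, with up to 11 and 14. At the edge of the rule stood 8 cells with a sum of 5 in plate 352W and 15 in 353W, and just outside it 5 and 26 cells with a sum of 4. The same rule found 5 cells in plate 350W and 13 in 351W.

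**Figure D2:**
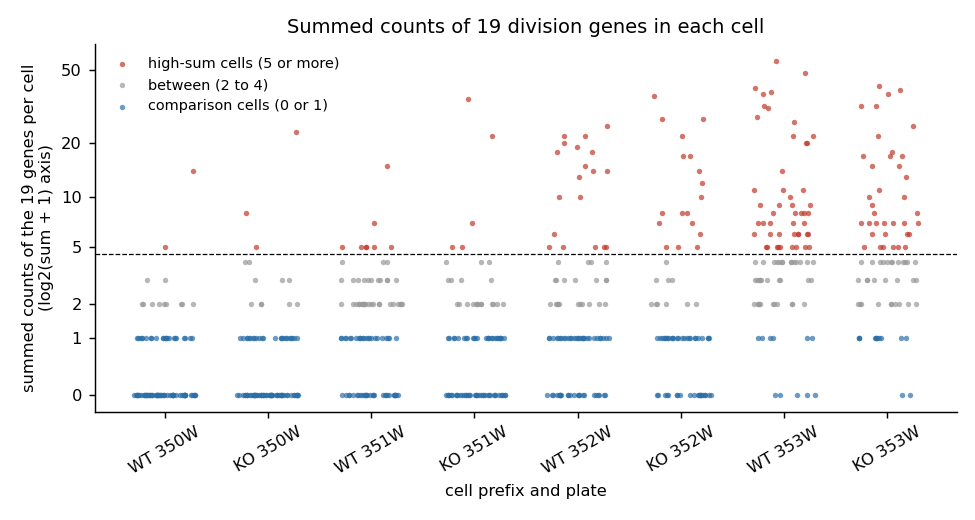
Summed counts of the 19 genes in each kept cell (y axis, on a log2(sum + 1) scale) by prefix and plate (x axis), 1 point per cell, with the dashed line between sums of 4 and 5. Plates 350W and 351W hold 5 and 13 cells above the line and plates 352W and 353W hold 37 and 86.

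The values of the 19 genes describe how the cells were chosen and support nothing. Hmgb2, a chromatin protein that bends DNA, and Top2a gave the most counts, 24.3% and 21.6% of the summed counts of the 123 cells. Hmgb2 was found in 97.3% of the high-sum cells of plate 352W and 74.4% of those of 353W. Of the markers that name the cells, Top2a was found in 82.9% of the 123, Cdk1 in 62.6%, Birc5 in 30.9% and Mki67 in 24.4%. Of the other mitotic genes, Ube2c was found in 33.3%, Ccnb2 in 24.4%, Plk1 in 23.6%, Cdc20 in 16.3% and Ccnb1 in 10.6%. Levels of Mki67 were 2.16 and 0.884 per 10000 counts in the WT and KO high-sum cells of plate 352W and 0.629 and 0.921 in those of 353W. A name of dividing G2/M cells thus fits these markers in part: Mki67, Ccnb1 and Ccnb2 each had no count in most high-sum cells, and 48 of the 86 in plate 353W fell under 5 without Top2a and Cdk1. Of the 19 genes, none entered the tests below.

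High-sum cells were also deeper. Their median was 4936 counts (WT) and 4775 (KO) in plate 352W and 5994 and 6313 in 353W, against 2530.5, 2179, 3120 and 2285 in the comparison cells. The sum is a count and so rises with depth, and larger cells and better captured cells cannot be told apart. For the tests, the 19 genes were removed and every cell was thinned at random to 1500 counts, which kept all 123 high-sum cells and 108 comparison cells (53, 36, 9 and 10). Thinned counts were summed per class in each unit and given as CPM, counts per 1000000. At 1500 counts the median high-sum cell had counts for 1021, 1015.5, 1113 and 1113 genes, and the median comparison cell for 979, 964.5, 1075 and 1061, higher in the high-sum cells in 4 of 4 units.

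Histone H2A genes and an alpha-tubulin were higher in the high-sum cells. By the quasi-likelihood test of edgeR over 583 genes, with the unit as a block, 7 passed an adjusted p of 0.05 (1.2%), 6 of them higher (1.03%) and 1 lower (0.172%). The 6 were Hist1h2aa, Hist1h2ap, Hist3h2a, H2afx, H2afj and Tuba1b, and the one lower was Iglc1. Of the higher genes, all except Hist1h2ap met the filter on low counts through their levels in the high-sum cells. Histone H2A is a core protein of the nucleosome, H2afx is the variant marked at DNA breaks, and replication-dependent histone transcripts are known for their peak in S phase and for mostly lacking poly(A) tails. In all 4 units together, 62 genes had an unadjusted p under 0.05. DESeq2 called the 5 H2A genes and neither Tuba1b nor Iglc1. Leaving out WT 353W gave 18 calls and leaving out WT 352W gave 5, with Tuba1b and Hist3h2a then short of the threshold (adjusted p 0.195 and 0.0560, edgeR).

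Hist1h2aa had thinned CPM of 2947 (WT) and 1556 (KO) in the high-sum cells of plate 352W and of 367 and 450.5 in those of 353W. In the comparison cells it stood at 62.9 and 55.6 in 352W and at 0 and 66.7 in 353W. The classes did not overlap, and the high-sum cells of 352W lay above those of 353W. The difference was 5.03 ± 0.36 on the log2 scale (SE), with an adjusted p of 6.5e-10 by edgeR. Another random draw of the thinning gave 3.59, also called.

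Hist1h2ap stood at 6070 and 3074 CPM in the high-sum cells of 352W and at 748 and 1225 in those of 353W. Its comparison cells had 239, 352, 370 and 267 CPM. All 4 high-sum values were above all comparison values, and the difference was 3.49 ± 0.32 (adjusted p 4.1e-08, edgeR).

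H2afx stood at 1404, 1148, 381 and 504.5 CPM in the high-sum cells and at 62.9, 130, 0 and 66.7 CPM in the comparison cells, in the same order of units. The log2 difference was 3.71 ± 0.36 (adjusted p 9.8e-08, edgeR). In the other random draw H2afx did not pass the filter on low counts and was not tested. Hist3h2a reached 2175, 1296, 272 and 360 CPM against 113, 167, 222 and 200. In plate 353W these rest on 20 and 20 counts in the high-sum and 3 and 3 in the comparison cells, and the classes lay close there; the log2 difference over the 4 units was 3.12 ± 0.39 (adjusted p 5.6e-06, edgeR). H2afj, an H2A variant, had 947, 630, 299 and 378 CPM against 151, 92.6, 74.1 and 66.7, with a log2 difference of 2.54 ± 0.36 (adjusted p 3.9e-05, edgeR).

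Tuba1b, an alpha-tubulin of which the spindle's microtubules are built, differed less than the H2A genes, and its high-sum levels were alike in both plates. Its CPM were 561 and 556 in the high-sum cells of 352W and 558 and 649 in those of 353W, against 113, 148, 222 and 333 in the comparison cells. The classes did not overlap, and the log2 difference was 1.70 ± 0.34 (adjusted p 0.0038, edgeR). Tuba1b did not pass with DESeq2 (adjusted p 0.21), with no gene filter (0.98) or against comparison cells with a sum of 0 (0.29).

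**Figure D3:**
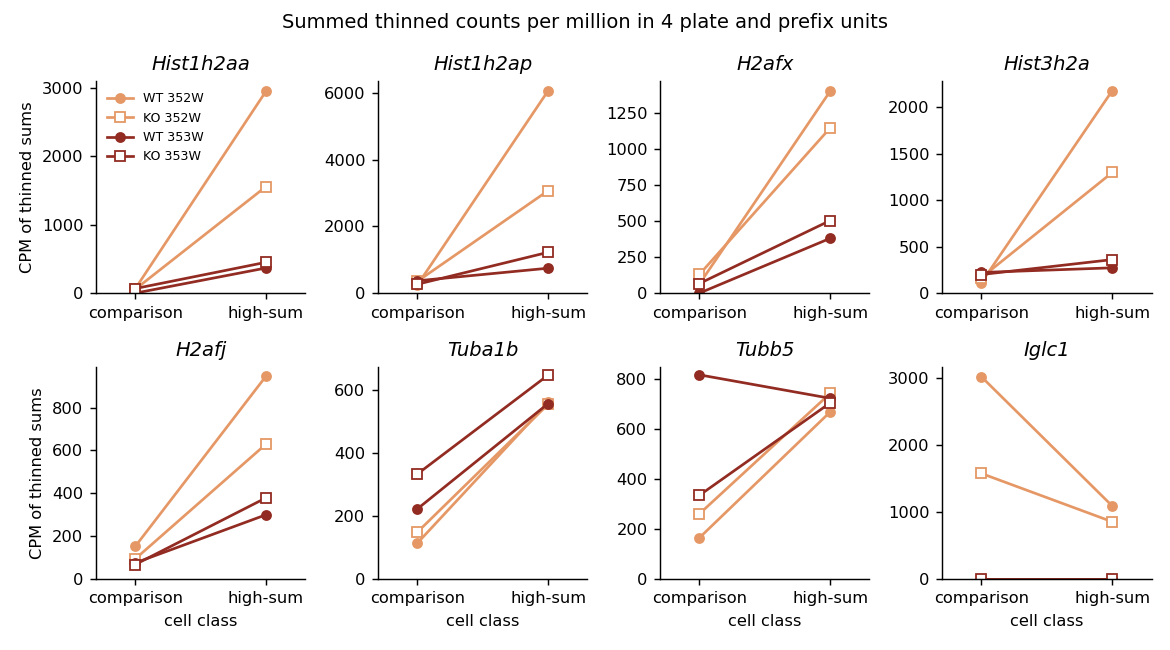
CPM of summed thinned counts (y axes, each from 0) in comparison and high-sum cells (x axis) for the 6 genes called higher, for Tubb5, which was not called, and for Iglc1, called lower; each line joins the 2 classes of 1 unit. The H2A genes rise more steeply in plate 352W than in 353W, Tuba1b lies between 556 and 649 CPM in all 4 high-sum sums, and Iglc1 is at 0 in plate 353W.

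The H2A genes are not independent measurements. Hist3h2a overlaps Trim17 in the RefSeq annotation, and their counts were equal in 759 of 768 wells, so these overlapping genes cannot be told apart here. Over the 123 high-sum cells the counts of Hist1h2aa, Hist1h2ap, H2afx and Hist3h2a correlated pairwise with Pearson's r from 0.786 to 0.909, a description over cells of the same wells and depths. H2A genes have near-identical coding sequences, the sources used here do not say whether the counting shared reads among them, and the 5 calls may therefore stand for fewer signals. Hist1h2aa, known as a testis H2A, is uncertain for the same reason, and none of the single H2A genes can be taken as the source.

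Next, 22 H2A genes were summed, namely the H2A genes with Hist symbols, H2afx and H2afj. The variants H2afv and H2afz were not in this set. For these 22 genes, a high-sum cell of plate 352W had a median of 28 thinned counts (range 0 to 59), and one of 353W a median of 2 (0 to 28). Comparison cells had a median of 1 in both plates, with maxima of 7 and 6. Cells with 10 or more H2A counts numbered 27 of 37 and 18 of 86 among high-sum cells and 0 of 89 and 0 of 19 among comparison cells. The H2A signal thus sat in part of the high-sum cells only. It is described here over cells, which are not replicates.

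Within plate 353W the H2A counts went with the other 17 genes. The 38 cells that kept a sum of 5 or more without Top2a and Cdk1 had a median of 9 thinned H2A counts, and 16 of them had 10 or more. The 48 cells that did not keep it had a median of 1, as the 19 comparison cells had, and 2 of them had 10 or more. Tuba1b stood at 877, 375 and 281 CPM in these groups in that order. In plate 352W the 32 and 5 cells had medians of 29 and 25 H2A counts. Median depth in 353W differed too, at 7435.5 and 5125 counts, and its part was not tested.

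**Figure D4:**
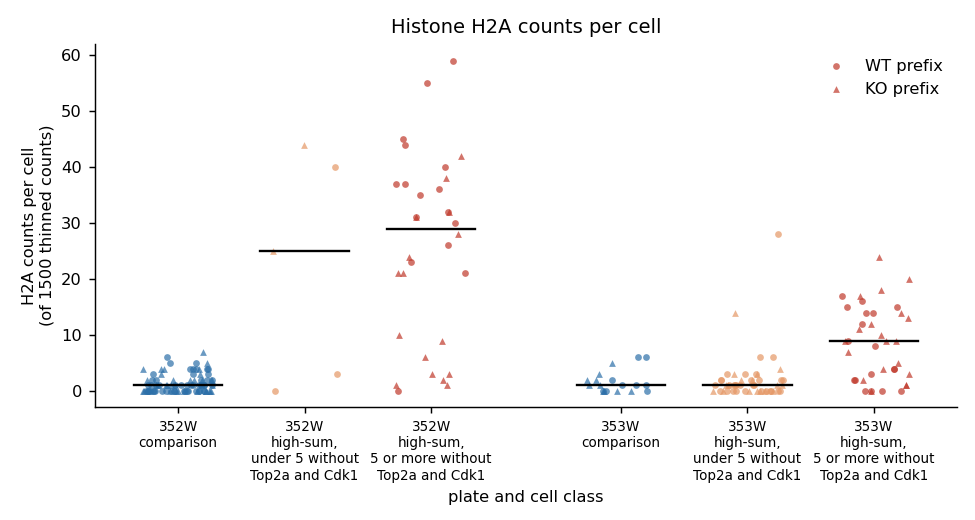
Summed counts of 22 H2A genes in each cell after thinning to 1500 counts (y axis) for comparison cells and for high-sum cells split by their sum without Top2a and Cdk1 (x axis), with 1 point per cell, circles for WT and triangles for KO, and a bar at the median. Comparison cells stay at 7 or fewer, and the high-sum cells of 353W that rest on Top2a and Cdk1 have the same median of 1.

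Among high-sum cells the H2A count did not follow the size of the sum in plate 352W (Pearson's r -0.125, Spearman's rho -0.147, 37 cells) and did in plate 353W (0.387 and 0.564, 86 cells). Total counts per cell went with the H2A count to a like degree in 353W (0.426 and 0.463) and not in 352W (-0.039 and -0.038). Thinned counts of the 70 genes of S phase and replication had Pearson's r of 0.294 and 0.104 with the H2A counts in the 2 plates. These are descriptions over cells that share a plate, with no test.

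Other histone families gave few counts. Per 10000 counts, before thinning, H4 genes stood at 4.21, 5.53, 2.04 and 2.43 in the high-sum cells (41, 50, 65 and 58 counts) and at 0.940, 0.505, 0 and 0.688 in the comparison cells. H1 linker histones, which bind between nucleosomes, had 15.3, 12.1, 7.26 and 6.61 against 4.23, 2.93, 4.23 and 4.82. H2B genes had 3.08, 2.65, 1.19 and 1.38 against 0.940, 0.404, 0.905 and 2.06, so they were lower in the high-sum cells of KO 353W. The set of 22 H2A genes on the same scale had 207, 112, 36.1 and 42.4 against 10.1, 10.2, 10.6 and 6.88. None of the H2B, H4 or H1 genes reached the depth to be tested after thinning over the 4 units. Plate 352W was also fitted alone, on its WT and KO units only. There the H1 gene Hist1h1e was tested and passed (2.26 ± 0.45, adjusted p 0.010, edgeR). It had thinned CPM of 632 and 519 against 151 and 74.1 in that plate. In plate 353W, with WT and KO cells summed together, it had 101 against 105 CPM.

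Leaving Top2a and Cdk1 out of the sum gave 70 high-sum and 176 comparison cells, and 23 of 579 genes passed (3.97%), 13 higher (2.25%) and 10 lower (1.73%). All 7 genes named above were among them. In plate 352W alone 23 of 644 passed (3.57%), 17 higher (2.64%) and 6 lower (0.932%), again with all 7. Without thinning 32 of 1884 passed (1.7%), 22 higher (1.17%) and 10 lower (0.531%), with all 7 among them. In plate 353W alone none of 565 did (0.0%), with 46 at an unadjusted p under 0.05; the log2 differences there were 3.50 for Hist1h2aa, 1.69 for Hist1h2ap, 3.62 for H2afx and 1.17 for Tuba1b. Without the block no gene passed (24 at an unadjusted p under 0.05), and with the 2 plates as the samples none of 1882 did (88). The log2 differences in these fits were 4.47 and 4.96 for Hist1h2aa, 3.31 and 3.70 for H2afx, and 1.71 and 1.67 for Tuba1b.

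The summed levels of the lists of cell division genes leaned the same way, with few genes deep enough to test. Of 15 tubulins and tubulin regulators, 4 were tested and 1, Tuba1b, passed. The median of the 4 was 0.98 on the log2 scale, against -0.03 over all 583 genes. Tuba1b and Tubb5 met the filter on low counts through their high-sum levels, so this median supports nothing. Tubb5, a beta-tubulin, had 667, 741, 721 and 703 CPM in the high-sum cells and 164, 259, 815 and 333 in the comparison cells, so the order was turned in WT 353W (log2 difference 1.12 ± 0.32, adjusted p 0.104, edgeR). It passed in plate 352W alone (1.72 ± 0.33, adjusted p 0.0090) and without Top2a and Cdk1 in the sum (1.41 ± 0.26, adjusted p 1.7e-05). In plate 353W alone Tubb5 did not pass (0.40 ± 0.41, adjusted p 0.87, edgeR). Stmn1, which destabilises microtubules, had 316 ± 112 against 161 ± 77.9 CPM (SD, n = 4 units) and Tuba4a 456 ± 347 against 533 ± 484; neither passed edgeR's test.

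Of 63 genes of the spindle, kinetochore and cytokinesis only Ran, the GTPase that guides spindle assembly, could be tested. Ran met the filter on low counts through its high-sum levels. It stood at 491, 519, 395 and 306 CPM against 138, 352, 74.1 and 66.7 and did not pass (1.28 ± 0.37, adjusted p 0.104, edgeR). The list as a whole summed to 3965, 3741, 3143 and 3766 CPM in the high-sum cells and 1597, 1667, 2444 and 1800 in the comparison cells. None of the 28 mitotic regulators outside the 19 genes could be tested. Their summed level was 1684, 1185, 1211 and 1297 CPM against 717, 611, 519 and 800, higher in 4 of 4 units.

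Of 33 genes of chromosome condensation and chromatin, 5 were tested and 1, H2afx, passed, with a median of 0.86. H2afx and Banf1 met the filter on low counts through their high-sum levels, so this median supports nothing. Banf1, which links chromatin to the nuclear envelope, had 509 ± 44.4 against 271 ± 123 CPM and Dek, a chromatin protein, 266 ± 116 against 99.9 ± 123, both short of the threshold. H2afv, an H2A variant outside the H2A set summed above, stood at 1398 ± 301 against 1365 ± 379. It was higher in 1 of 4 units (log2 difference 0.03), so not every H2A gene was higher in the high-sum cells. Of 71 histone genes 3 were tested, and all passed, against 7 of 583 genes (1.2%) in all. Hist1h2aa and Hist3h2a met the filter on low counts through their high-sum levels. Histone genes that were low in the high-sum cells could hardly enter the test, so this count supports nothing. None of the 70 genes of S phase and replication was deep enough, and their sum was 4491, 3037, 4463 and 4847 CPM against 2428, 2556, 2296 and 3200.

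In all, the summed level was higher in the high-sum cells in 4 of 4 units for 7 of 22 lists, namely histones, tubulins, mitotic regulators, spindle genes, chromatin genes, S phase genes and myeloid genes. Among single tested genes 53 of 583 (9.09%) had that order. Sums of lists carry no test here.

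**Figure D5:**
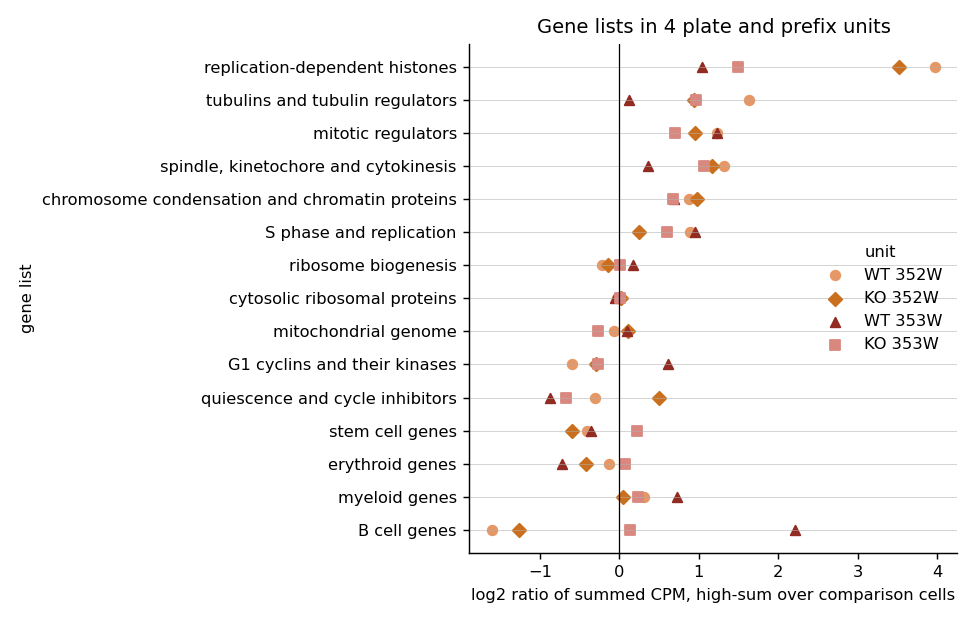
Log2 ratio of the summed thinned CPM of each gene list in high-sum over comparison cells (x axis), by list (y axis), with 1 symbol per unit and a line at no difference. The 6 division lists at the top lie to the right of the line in 4 of 4 units, and the B cell genes lie on both sides.

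Beside the H2A genes and Tuba1b, Iglc1 was the only gene called. Of 67 cytosolic ribosomal protein genes tested none passed, with a median of -0.00 and 33 above 0, and of 10 mitochondrially encoded genes none passed, with a median of -0.04. The nucleolar protein Ncl had 670 ± 61.7 against 460 ± 62.0 CPM and Npm1 503 ± 342 against 607 ± 447 (SD, n = 4 units), both short of the threshold. The glycolytic enzyme Pkm stood at 170 ± 102 against 358 ± 282 and did not pass. Ccnd2, a cyclin of G1, stood at 221 ± 259 against 259 ± 125 and was the only tested gene of its list of 5. None of the 26 genes of quiescence and cycle inhibition could be tested.

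Stem cell genes were found in the high-sum cells. Of 28 genes 8 were tested and none passed, with a median of -0.22 and 1 above 0. Ifitm1 had 316, 148, 476 and 559 CPM in the high-sum cells and 843, 796, 1037 and 400 in the comparison cells, lower in 3 of 4 units (-1.10 ± 0.31, adjusted p 0.0964, edgeR). It passed in plate 352W alone (-1.83 ± 0.36, adjusted p 0.010). In plate 353W alone Ifitm1 did not pass (-0.38 ± 0.48, adjusted p 0.89, edgeR). Hlf, a transcription factor of stem cells, had 217 ± 66.1 against 305 ± 144 CPM, Lmo2 449 ± 32.4 against 553 ± 293, and Cd34 288 ± 150 against 299 ± 35.1. All 7 stem cell markers (Hlf, Mecom, Procr, Ly6a, Kit, Meis1 and Mllt3) had counts in the high-sum cells. Summed, they stood at 982, 1111, 939 and 883 CPM against 1333, 1185, 815 and 733 in the comparison cells. They were thus lower in both units of 352W and higher in both of 353W. The list of 28 genes summed to 3404, 2852, 4163 and 4685 CPM against 4528, 4296, 5333 and 4000, higher only in KO 353W.

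Markers of other cell types differed by type. The 4 markers of multipotent and lymphoid-primed cells summed to 599 to 1111 CPM in the high-sum and 519 to 1094 in the comparison cells. Of these, Dntt passed the depth filter, at 324 ± 234 against 273 ± 196, and was not called. Of 4 myeloid markers all had counts, with 807, 333, 463 and 541 CPM against 277, 370, 296 and 200, lower in the high-sum cells of KO 352W. Mpo, the granule peroxidase, had 10, 2, 16 and 13 thinned counts in the high-sum and 3, 6, 0 and 2 in the comparison cells. The 4 erythroid markers summed to 74.1 to 288 CPM against 0 to 333. Pf4, Cd3e and Cd3g were at 0 in both classes, while Itga2b and Gp9 (11 and 8 counts in the high-sum cells) and Nkg7 (13) were found. Of the 4 endothelial and stromal markers, Col1a1 was at 0 and the others had 1 or 2 counts in the high-sum cells.

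Iglc1, an immunoglobulin light chain constant gene, was the gene called lower, and it came from 1 plate. It had 1088 and 852 CPM in the high-sum cells of 352W against 3019 and 1574 in the comparison cells, and 0 counts in every class of 353W (-1.28 ± 0.26, adjusted p 0.0049, edgeR). Immunoglobulin and J chain transcripts were found in every kept cell of these classes of plate 352W, at 0.729% and 0.671% of the counts of high-sum cells and 3.21% and 1.95% of those of comparison cells, and at 3.97% and 2.96% in left-out wells. Cd79a and Cd79b, parts of the B cell receptor, had 1 and 1 thinned counts in the high-sum and 2 and 7 in the comparison cells. In plate 353W immunoglobulin transcripts took 0.546% and 0.117% of high-sum counts against 0.160% and 0.131%, the reverse order for WT. These percentages pool all cells of a class. The WT high-sum cells of 353W held 1 well of over 100 immunoglobulin counts, and the comparison cells of 352W held 3 (WT) and 2 (KO). Without wells of over 100 immunoglobulin counts Iglc1 was no longer called, and the 6 higher genes made up the 6 calls. The part of RNA from other wells in this result was not tested.

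The share of high-sum cells was higher among KO than WT cells in one plate and lower in the other. In plate 352W they made up 20% of WT cells (95% Clopper-Pearson interval 12.5% to 29.5%) and 24.3% of KO cells (15.1% to 35.7%), and in plate 353W 51.6% (41.1% to 62.0%) and 46.2% (35.03% to 57.8%). The differences between KO and WT were 4.32 and -5.33 percentage points, with a mean of -0.50 (two-sided exact permutation test, p = 1). That test moved the shares freely between the 2 plates, so it ignored that WT and KO cells share a plate. It allows no p below 1 in 3. Over all 4 plates, with 2.11% and 3.26% in plate 350W and 8.33% and 5.62% in 351W, the mean difference was -0.64 (exact sign-flip test, p = 0.875; 4 plates allow no p below 1 in 8). The intervals cover counting error only.

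Depth bears on these shares. Thinning drops cells below the chosen depth. After thinning to 1500 counts before the rule, the shares in plate 352W were 7.45% of 94 WT and 3.12% of 64 KO cells. In 353W they were 6.45% of 93 and 14.5% of 76, so the direction was turned in both plates. After thinning to 2500 counts KO was higher in 4 of 4 plates, by 4.20, 2.21, 7.27 and 1.02 points in plates 350W to 353W. The exact sign-flip p was the smallest that 4 plates allow, 1 in 8. More KO than WT cells were lost at this depth. It left 74, 91, 63 and 92 WT cells and 36, 68, 38 and 68 KO cells, and plate 350W had 1 WT and 2 KO high-sum cells. The part of this loss was not tested. Without Top2a and Cdk1 and without thinning they were 16.8% and 21.6% in 352W and 18.9% and 25.0% in 353W. No test of the share reached the threshold, and none could with these plates.

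Within the high-sum cells no gene passed between KO and WT after thinning. None of 583 genes passed edgeR's test (0.0%), with 26 at an unadjusted p under 0.05, and DESeq2 called none, with 2 at an unadjusted p under 0.05. The KO minus WT difference was -0.51 ± 0.30 for Hist1h2aa, -0.32 ± 0.39 for Hist1h2ap, -0.02 ± 0.27 for H2afx and 0.10 ± 0.28 for Tuba1b on the log2 scale. Median H2A counts per cell were 35 in WT and 21 in KO cells of plate 352W, and 2 and 3 in those of 353W, so the order was not the same in both plates. When the sum of WT 352W was left out 14 genes passed, 13 of them lower in KO; without WT 353W 1 did. Without thinning 1 of 1884 passed (0.0531%), Bach2, lower in KO (0.0531%). In the high-sum cells of 352W and 353W it had 28 and 88 counts in WT and 1 and 8 in KO. The comparison cells had the same order, with 17 and 7 counts in WT and 0 and 0 in KO. The test of whether the difference between high-sum and comparison cells itself differed by genotype also called none of 583 (0.0%), with 12 at an unadjusted p under 0.05 by edgeR and 0 by DESeq2.

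The 2 plates that were not used to choose the cells gave 3 of the 5 H2A genes again, from few cells. In plates 350W and 351W the same rule left 3 units with 3, 8 and 5 high-sum cells (KO 350W, WT 351W and KO 351W) and 71, 52 and 58 comparison cells, since WT 350W had 2 high-sum cells, under the 3 needed. Of 814 genes 12 passed (1.47%), 9 higher (1.11%) and 3 lower (0.369%). Of these, 4 were called higher in both pairs of plates, Hist1h2aa, Hist1h2ap, H2afx and Tuba1b. These 4 genes met the filter on low counts here through their levels in the high-sum cells. At their comparison levels alone they would not have been tested, so this overlap supports nothing. Leaving out KO 350W gave 7 calls and leaving out KO 351W gave 4, and without thinning 20 of 2406 passed (0.831%), 17 of them higher (0.707%). With no gene filter 28 passed, all lower, so none of the 4 genes was called. Without the replicate block 0 passed. The genes named from these plates were picked after their values were seen.

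Hist1h2aa had 4, 5 and 5 thinned counts in the high-sum cells (889, 417 and 667 CPM) and 7, 2 and 1 in the comparison cells (65.7, 25.6 and 11.5 CPM), a log2 difference of 3.94 ± 0.61 (adjusted p 4.2e-07, edgeR). Hist1h2ap had 444, 583 and 1467 CPM against 93.9, 103 and 57.5 (3.05 ± 0.54, adjusted p 6.8e-06) and H2afx 667, 333 and 933 against 56.3, 76.9 and 92.0 (2.77 ± 0.58, adjusted p 0.00038). H2afj was tested and did not pass (2.23 ± 0.72, adjusted p 0.22, edgeR), and Hist3h2a was not deep enough to test. H2afz, an H2A variant at promoters, passed here on 2, 3 and 5 counts against 5, 0 and 2 (3.97 ± 0.67, adjusted p 1.8e-05). Tuba1b had 667, 333 and 1867 CPM against 197, 333 and 161, level in WT 351W (1.72 ± 0.49, adjusted p 0.033). Over cells, 10 or more H2A counts were found in 2 of 5 high-sum cells of plate 350W and 2 of 13 of 351W, against 0 of 152 and 1 of 110 comparison cells, so a handful of cells carry these values. Without Hmgb2 in the sum, 2 units were left and none of 1063 genes passed (55 at an unadjusted p under 0.05 by edgeR). Scaled by library totals the median over all genes moved from -0.13 to 0.04 on the log2 scale, and 5 genes passed, all higher, against 9 higher and 3 lower.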

How the data were processed

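Single stem cells were counted by MARS-Seq in 4 plates of 192 wells. The authors deposited whole-number counts per gene and cell, with no normalization, per the file headers and values; the submitters' processing notes name FastQC and the build GRCm38.p4, and the sources used here do not give the aligner, the counting rule or any cell filter. The region lists of the chromatin experiments of the series were not used here. Of 25832 gene IDs, 25714 matched a symbol in a name table.

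Cells with 500 or more counts were kept (716 of 768 wells). The 19 genes of the rule were summed per cell (5 or more, high-sum; 0 or 1, comparison) and then removed; cells were thinned to 1500 counts (seed 1) and summed per plate, prefix and class. Sums were tested with edgeR 4.0.16 in R 4.3.3 (TMM, filterByExpr, quasi-likelihood test, unit as a block, Benjamini-Hochberg over all genes tested, threshold 0.05); sums of fewer than 3 cells were not used. DESeq2 1.42.0 was an alternative. The fit was tested on simulated data with known changes. Shares have 95% Clopper-Pearson intervals. Promoter sequences are RefSeq's.

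The members and gene lists were chosen with earlier results of these data known. Genes named in the text are the 19 of the rule, the 15 with the smallest p among those called higher and the 10 among those called lower, and up to 5 tested genes per list by mean CPM; the histone list uses the files' symbols, set after the files were seen. By that rule no called gene of a division list with TTTGAA in the window shown had a promoter to print, and the 2 histone promoters were chosen after the values were seen. Alternatives were thinning depth and draw, scaling, gene filter, rule thresholds, Hmgb2, Ig-rich wells, the block and each unit left out; Top2a and Cdk1 left out of the rule and each plate alone were added after seeing the data.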

Additional observations from a re-analysis of the deposited data

Results flagged for a closer look

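Hist1h2aa stood at 0 CPM in the comparison cells of WT 353W, apart from the other 3 units (55.6 to 66.7 CPM); that sum holds 9 cells. Tuba1b stood at 649 CPM in the high-sum cells of KO 353W, apart from 556 to 561 in the others. Cdk1 was counted in 56.6% of the kept cells of plate 353W, apart from 2.14% to 11.2% in the other plates. Such a gap arises by chance in about 1 of 20 groups of 4.

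Wells under 500 counts, left out of all comparisons, also held counts of these genes, above the limit of 3 counts set for a count of 0. The 23 such wells of plate 352W had 6 counts of the 19 genes and 6 of H2A genes in 7749 counts, or 7.74 per 10000 for each, against 11.7 and 64.7 per 10000 in kept cells. The 17 wells of plate 353W had 4 and 6 counts in 4541, or 8.81 and 13.2 per 10000, against 15.6 and 27.8 in kept cells. No control wells are labelled.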

How the results depend on the processing

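Of 60 recomputed counts of called genes and share differences, 29 stayed within 1.5 times of the main count or kept their direction. The 7 genes called between high-sum and comparison cells became 12 with thinning to 2500 counts, 32 with no thinning, 12 with another random draw, 11 with sums of 3 or more, 12 with sums of 10 or more, 23 without Top2a and Cdk1, 15 without Top2a, Cdk1 and Hmgb2, 23 in plate 352W alone and 0 in 353W alone. Leaving out each unit gave 5 to 18 calls, 18 without WT 353W. Without the replicate block 0 genes passed, and 0 with the 2 plates as samples and the plate as replicate block. None of 397 recomputed values of 19 named genes changed sign. Hist1h2aa, Hist1h2ap and H2afx were lost in 3 alternatives each (no replicate block, plates as samples, 353W alone), and H2afx was not tested in the other draw, with log2 differences from 3.18 to 5.23, 1.69 to 4.20 and 2.92 to 4.19, and Tuba1b passed in 17 of 24.

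KO against WT among high-sum cells went from 0 to 1 call with no thinning and from 0 to 14 on leaving out units, and the genotype difference of the effect to 1 with library totals. In plates 350W and 351W the 12 calls became 20 with no thinning, 5 with DESeq2, 28 with no gene filter (all lower), 5 with library totals, 0 without Hmgb2, 5 without Top2a and Cdk1, 0 with no replicate block and 4 to 12 on leaving out units. The mean KO minus WT share of -0.50 points turned to 1.85 with thinning to 1500, 4.15 with thinning to 2500, 0.39 with sums of 10 or more, 1.23 with cells of 1000 or more counts and 5.42 without Top2a and Cdk1, and ran from -5.33 to 4.32 with a plate left out. The cause was not tested. Depth limited the tests to 583 of 25832 genes.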

Other observations

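Without thinning more genes were deep enough to test, and 32 of 1884 passed (1.7%), 22 higher and 10 lower in the high-sum cells. All 7 genes called after thinning were among them. The depth of the 2 classes differs in this fit, and the genes named from it were picked after their values were seen. Of the division genes, Cdca3, which promotes degradation of a mitotic brake, stood at a log2 difference of 3.29 ± 0.57 (adjusted p 0.0025, edgeR), and Smc4, a condensin subunit, at 1.62 ± 0.39 (adjusted p 0.039). Tubb5 passed as well (1.23 ± 0.24, adjusted p 0.0088). The linker histones Hist1h1e and Hist1h1b stood at 1.83 ± 0.37 and 1.76 ± 0.38 (adjusted p 0.011 and 0.021). Trim17 passed with Hist3h2a, with which it shares its counts.

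Among the 10 lower genes were Ly6a, the stem cell surface antigen Sca-1, at -1.33 ± 0.31 (adjusted p 0.035, edgeR), Ifitm1 at -1.06 ± 0.23 (adjusted p 0.021) and Car2, a carbonic anhydrase, at -0.80 ± 0.19 (adjusted p 0.036). Immunoglobulin genes were among them too, with Jchain at -2.14 ± 0.43 (adjusted p 0.011), beside the immunoglobulin transcripts found across plate 352W. In this fit KO and WT high-sum cells differed in 1 gene (0.0531%), Bach2, lower in KO. Its counts were lower in KO in the comparison cells too, so this is not particular to the high-sum cells.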
